A study of Homo sapiens with 6 samples.

Results

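CD74 and the MHC class II genes were examined as 10 rows of the count table, chosen by gene symbol. They were the transactivator gene CIITA, the invariant chain gene CD74, the 4 antigen-binding chain genes HLA-DRA, HLA-DRB1, HLA-DPA1 and HLA-DPB1, the 2 peptide editor genes HLA-DMA and HLA-DMB, and the lysosomal processing genes CTSS and IFI30. All 10 were among the 56303 genes of the table, and 6 of the 10 were among the 19916 genes with enough counts to be tested. The 4 chain genes did not pass that filter and are described by their counts. The RNA-seq compared 786-O cells given an siRNA against NFE2L3 (3 libraries, labelled 48 h) with 786-O cells given a control siRNA (3 libraries, labelled 0 h and wild type). All 6 libraries come from the 786-O line, long established from a clear cell renal cell carcinoma (ccRCC) that had lost VHL function. Effects of the siRNA cannot be told apart from those of the labelled time, and which of the NFE2L3 siRNAs listed by the study these libraries had is not stated. Of the knockdown libraries, 2 carry the genotype labels NFE2L4 and NFE2L5, whereas their titles and source names read NFE2L3, and they were used as NFE2L3 knockdown. No label places the libraries in separate cultures, so the spread behind the p-values is that between libraries and may be a technical one.

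MHC class II molecules present peptides from endosomes to CD4+ T cells. Their alpha and beta chains assemble in the endoplasmic reticulum with the invariant chain, the product of CD74, which blocks the peptide groove and directs the complex to endosomes. There CTSS (cathepsin S) trims the invariant chain, IFI30 (also called GILT) reduces disulfide bonds of antigens, and HLA-DM exchanges the last invariant chain fragment for peptide. Transcription of the whole set depends on CIITA, a co-activator without DNA binding of its own that is recruited by RFX, CREB and NF-Y factors on the promoters. Professional antigen-presenting cells make class II constitutively, while epithelial cells, including those of the renal tubule, make it mainly after exposure to interferon-gamma. CD74 at the cell surface is also the receptor of the cytokine MIF.

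The total counts were 51828446 to 56806368 in the knockdown libraries and 53051297 to 57391929 in the control libraries. NFE2L3, the targeted gene, had 1087, 1075 and 1068 counts in the knockdown libraries, against 6171, 6508 and 6403 counts in the control libraries. It was at 17.2% of control (log2 fold change -2.54, SE 0.0482, adjusted p = 3.98e-22 by the quasi-likelihood test of edgeR), which follows the labels. Values below are counts scaled to a library of 1e+06 counts (CPM) for 1 gene across libraries and CPM per kilobase of exon (RPKM) wherever genes are compared with each other. PAX8, a renal lineage factor, averaged 217 CPM in knockdown and 241 CPM in control libraries, while CA9, a common ccRCC marker, had at most 6 counts in any library. Of 11 tested renal carcinoma markers, 4 were called lower at an adjusted p under 0.05 (PAX8, KRT8, KRT18 and CDH2) and 1 higher (EPAS1). Over all tested genes these shares were 14% lower and 12.7% higher. The higher count was 0 without knockdown replicate 1 or 3 and 2 without control replicate 3.

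On the RPKM scale IFI30, CD74 and CTSS led the 10 genes, CIITA and HLA-DMA were lower, and HLA-DMB and the antigen-binding chains were the lowest. IFI30 was the highest, with a mean level of 9.12 RPKM in knockdown and 10.3 RPKM in control libraries. CD74 followed with a mean level of 3.06 RPKM in knockdown and 4.37 RPKM in control libraries, and CTSS with 2.06 RPKM in knockdown and 2.77 RPKM in control libraries. The ranges of these 3 neighbours did not overlap within either group. CIITA had a mean level of 0.36 RPKM in knockdown and 0.34 RPKM in control libraries, and HLA-DMA 0.281 RPKM in knockdown and 0.229 RPKM in control libraries. The levels of CIITA and HLA-DMA overlapped in the knockdown libraries and not in the control libraries. The remaining 5 genes had mean levels of at most 0.0482 RPKM in knockdown and 0.0872 RPKM in control libraries. Among these 5, the levels of HLA-DRB1, HLA-DPB1 and HLA-DMB overlapped between neighbours in both groups.

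**Figure D1:**
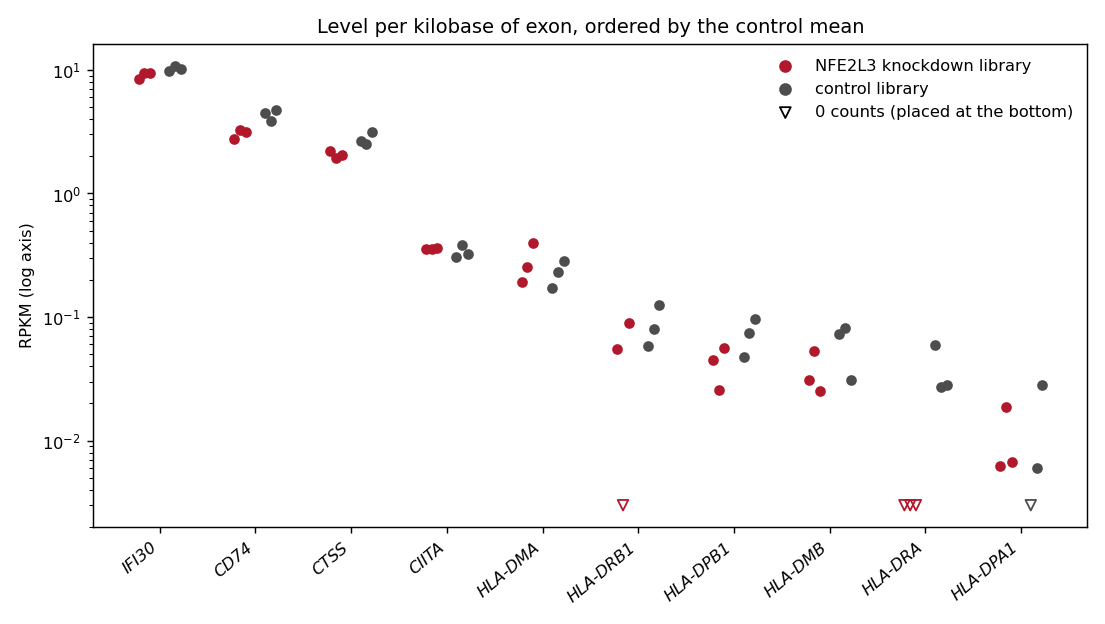
RPKM on a log axis for each of the 10 genes, ordered by the control mean, with 1 point per library (knockdown left, control right) and open triangles for libraries with 0 counts. IFI30, CD74 and CTSS stand above 1 RPKM in every library, whereas the 4 chain genes and HLA-DMB stay below 0.13 RPKM.

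Of the 6 tested genes, 3 were lower in the knockdown libraries at an adjusted p under 0.05 (CD74, CTSS and IFI30), where 14% of all tested genes were called lower. None of the 6 was called higher, where 12.7% of all tested genes were, and none of the 6 was higher at an unadjusted p under 0.05 by edgeR, DESeq2 or limma-voom. The same 3 genes were those whose knockdown libraries all lay below all control libraries, a pattern shown by 20.4% of all tested genes. No member reached the p under 0.05 and fold of at least 2 that the methods of the study used, which 1.1% of all tested genes did. The median log2 fold change of the 6 tested genes was -0.3, beside -0.0007 over all tested genes. CD74 is labelled in the study's heat map of the transcripts it picked. The study took those lower in these libraries, higher in its ccRCC tissue and bound at the promoter by transfected Flag-tagged NFE2L3 in its ChIP-seq. CD74 was at 70.1% of control here, short of the fold of at least 2 in the study's methods. The text of the paper does not say how CD74 entered that set. The tissue and ChIP-seq data were not examined here, and the fall of CD74 is not independent evidence of its direction. In a bulk culture, fewer cells with a transcript and less transcript per cell cannot be told apart.

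**Figure D2:**
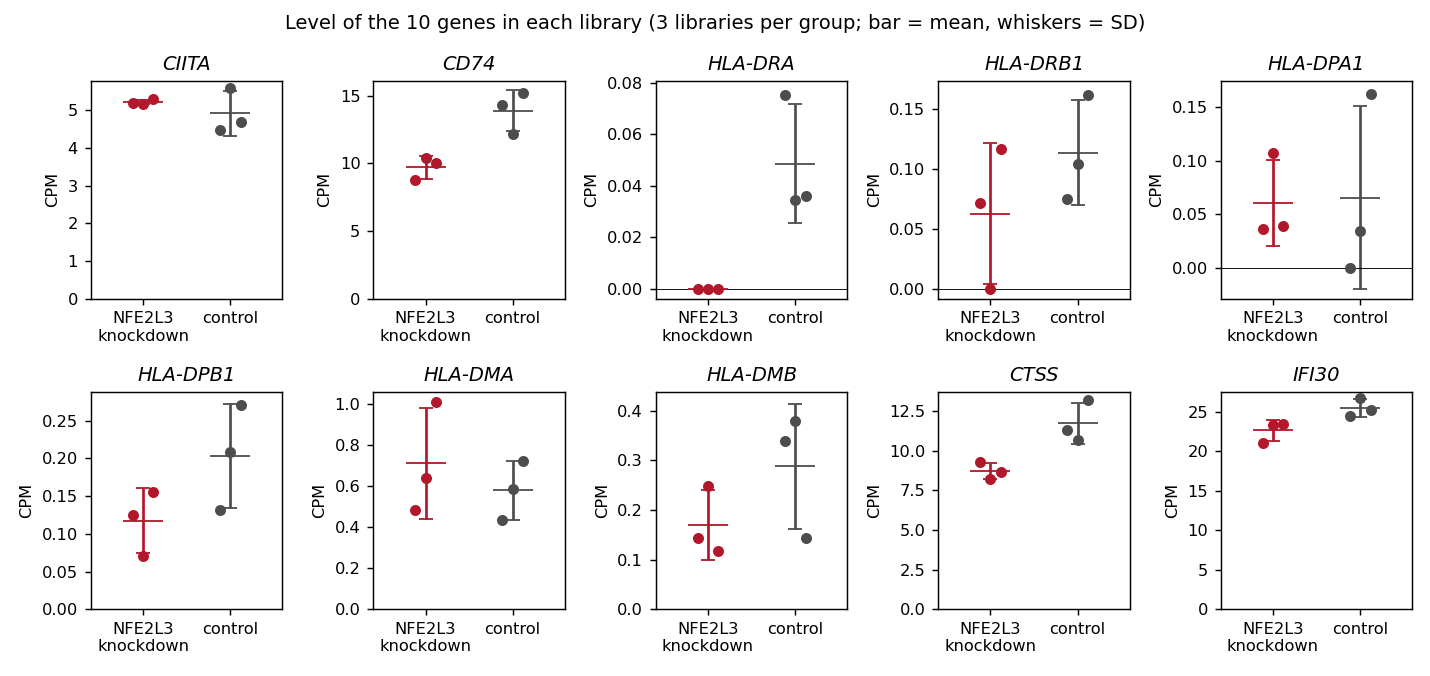
CPM of the 10 genes in each library on linear axes (points), with the mean and SD of 3 libraries per group, knockdown left and control right. The points of CD74, CTSS and IFI30 do not overlap between the groups, with means of 9.74, 8.72 and 22.6 CPM in knockdown and 13.9, 11.7 and 25.4 CPM in control libraries.

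CD74, the invariant chain gene on the minus strand of chromosome 5 (chr5:150401637-150412929, GRCh38, 3184 exon bases), had 489, 586 and 516 counts in the knockdown libraries, against 761, 704 and 844 counts in the control libraries. This was 8.75 to 10.4 CPM in knockdown libraries, against 12.2 to 15.2 CPM in control libraries. The highest knockdown library stayed below the lowest control library. CD74 averaged 9.74 ± 0.878 CPM in knockdown and 13.9 ± 1.56 CPM in control libraries (SD, n = 3 each). The log2 fold change was -0.51 (SE 0.0858, adjusted p = 5.97e-05 by edgeR), or 70.1% of control with a 95% interval of 0.624 to 0.787 as a fold. No exon of another gene shares bases with CD74. Under 16 alternatives, which included leaving out each library, its log2 fold change ran from -0.6 to -0.44 and its adjusted p stayed at or below 0.00128.

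The genes whose profile over the 6 libraries lay nearest to that of CD74 were SPANXB1, SLAMF7, ING3, MICB and PARD6B, among 10109 genes with a symbol and a mean of at least 5 CPM. Their root mean square distances from the CD74 profile, in centred log2 CPM, were 0.0646 for SPANXB1, 0.0654 for SLAMF7, 0.067 for ING3, 0.0677 for MICB and 0.075 for PARD6B. SLAMF7, a surface receptor best known from lymphocytes and plasma cells, averaged 6.16 CPM in knockdown and 8.98 CPM in control libraries, and MICB, a ligand of the NKG2D receptor of killer lymphocytes, averaged 4.9 CPM in knockdown and 7.32 CPM in control libraries. The log2 fold changes of all 5 were alike, at -0.5 for SPANXB1, -0.54 for SLAMF7, -0.51 for ING3, -0.58 for MICB and -0.51 for PARD6B. These 5 genes were picked for that likeness, so their fall is a description.

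Partners of CD74 outside antigen presentation formed a further list. Of its 6 tested genes for ligands, co-receptors and class II turnover, the test called 3 lower and 0 higher, beside 14% and 12.7% of all tested genes. The median log2 fold change was -0.08. MIF, the ligand of CD74, was at 61.8 CPM in knockdown and 68.7 CPM in control libraries (log2 fold change -0.15, adjusted p = 0.0129). CD44, which transmits the MIF signal together with CD74, was at 529 CPM in knockdown and 584 CPM in control libraries (log2 fold change -0.14, adjusted p = 0.0116). The co-receptor genes CXCR2 and CXCR4 had at most 4 counts in any library, with CXCR2 at 0 in all 6. MARCH8, a ubiquitin ligase that can remove class II from the surface, was at 6.99 CPM in knockdown and 8.4 CPM in control libraries (log2 fold change -0.27, adjusted p = 0.0313). Without knockdown replicate 2 none of the 3 was called lower. MIF shares 687 of its exon bases with MIF-AS1 on the opposite strand, and the counts of MIF-AS1 were 100.3% to 100.5% of those of MIF in every library, so the counts of these overlapping genes cannot be told apart.

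CTSS, the cathepsin that trims the invariant chain (chr1:150730196-150765957, GRCh38, minus strand), was lower as well. It had 518, 462 and 445 counts in the knockdown libraries, against 600, 616 and 731 counts in the control libraries. In CPM these were 9.27, 8.22 and 8.66 in knockdown libraries, against 11.3, 10.7 and 13.2 in control libraries, without overlap. CTSS averaged 8.72 ± 0.527 CPM in knockdown and 11.7 ± 1.3 CPM in control libraries (SD, n = 3 each), a log2 fold change of -0.43 (SE 0.0855, adjusted p = 4.89e-04 by edgeR). The 95% interval of the fold was 0.663 to 0.836. Under the 16 alternatives its log2 fold change ran from -0.49 to -0.33 and its adjusted p stayed at or below 0.00714.

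The other endosomal proteases and their inhibitors had calls in both directions. The test called 3 of 12 genes lower and 4 higher and left 5 uncalled, where 14% of all tested genes were called lower and 12.7% higher. The median log2 fold change was 0.05. CTSL, which can replace cathepsin S in trimming the invariant chain in the thymic epithelium of mice, was higher at 564 CPM in knockdown and 498 CPM in control libraries (log2 fold change 0.18, adjusted p = 5.02e-04). CTSH, an aminopeptidase, was higher at 12.5 CPM in knockdown and 10.6 CPM in control libraries (log2 fold change 0.23, adjusted p = 0.0219). CTSC, the activator of granule proteases, was lower at 8.94 CPM in knockdown and 10.9 CPM in control libraries (log2 fold change -0.29, adjusted p = 0.00655), and so was the cathepsin inhibitor gene CSTB at 51.6 CPM in knockdown and 61.1 CPM in control libraries (log2 fold change -0.24, adjusted p = 3.31e-04). The difference between the changes of CTSS and CTSL was not tested. The count of 4 higher genes was 1 without knockdown replicate 3, and 2 without knockdown replicate 1, control replicate 2 or control replicate 3.

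IFI30, the lysosomal thiol reductase gene (chr19:18173162-18178117, GRCh38, plus strand, 2481 exon bases), had the smallest log2 fold change of the 3 called genes. It had 1178, 1308 and 1208 counts in the knockdown libraries, against 1296, 1542 and 1400 counts in the control libraries. In CPM these were 21.1, 23.3 and 23.5 in knockdown libraries, against 24.4, 26.7 and 25.2 in control libraries, and the groups did not overlap, though knockdown replicate 3 and control replicate 1 lay close together. IFI30 averaged 22.6 ± 1.34 CPM in knockdown and 25.4 ± 1.13 CPM in control libraries (SD, n = 3 each), a log2 fold change of -0.17 (SE 0.0594, adjusted p = 0.0352 by edgeR) with a 95% interval of the fold of 0.82 to 0.964. This call was lost in 5 of the 16 alternatives. It had an adjusted p = 0.0601 with upper quartile scaling, 0.139 without control replicate 2, 0.0564 without control replicate 3, 0.215 without knockdown replicate 1 and 0.0504 without knockdown replicate 2, and its log2 fold change ran from -0.2 to -0.12 over all 16.

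The exons of IFI30 share 997 bases (40.2%) with AC007192.4, a readthrough gene on the same strand that also covers PIK3R2. The count of AC007192.4 differed from the sum of IFI30 and PIK3R2 by 1 to 6 counts in each library. In knockdown replicate 1, for example, AC007192.4 had 4523 counts and IFI30 and PIK3R2 together 4524. A read in shared bases was thus counted for each gene that it overlapped, and the count of IFI30 was not reduced by the overlap. AC007192.4 averaged 83.2 CPM in knockdown and 90.8 CPM in control libraries (log2 fold change -0.13, adjusted p = 0.0326), and it holds the reads of IFI30 itself.

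CIITA, the master regulator of the set (chr16:10866222-10932281, GRCh38, plus strand, 14503 exon bases), had counts in every library, without a change that passed the test. It had 290, 291 and 272 counts in the knockdown libraries, against 237, 324 and 261 counts in the control libraries. The knockdown values lay inside the control range on the CPM scale, at 5.19, 5.18 and 5.29 CPM in knockdown libraries, against 4.47, 5.6 and 4.7 CPM in control libraries. The log2 fold change was 0.08 (SE 0.106, adjusted p = 0.628 by edgeR), and its 95% interval of -0.13 to 0.29 allows a fold between 0.916 and 1.22. It did not pass in any of the 16 alternatives, in which the log2 fold change ran from 0.02 to 0.18. CIITA shares 669 exon bases with DEXI, a gene on the opposite strand that averaged 6.19 CPM in knockdown and 5.61 CPM in control libraries. DEXI had 344, 333 and 334 counts in the knockdown libraries, against 280, 392 and 265 counts in the control libraries. Both genes had their highest count in control replicate 2. Counts of opposite-strand neighbours were not kept apart, so part or most of the CIITA counts may be reads of DEXI. This share was not tested, and the fold and interval above are those of the counts.

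The 4 chain genes had almost no reads. HLA-DRA, the invariant alpha chain gene of HLA-DR (chr6:32439842-32445046, GRCh38), had 0 counts in all 3 knockdown libraries, against 4, 2 and 2 counts in the control libraries, and was the only chain gene whose groups did not overlap. A count of 0 allows up to 3 counts, which is 0.0534 to 0.0584 CPM for a single knockdown library and 0.0184 CPM over the 3 together. The control values were 0.0754, 0.0346 and 0.036 CPM, on both sides of the limit for a single library and above that for the group. The control level rests on 8 counts in all. HLA-DRB1, the main DR beta chain gene, had 4, 0 and 6 counts in knockdown libraries, against 4, 6 and 9 counts in control libraries, and its near-identical paralogs make the assignment of such reads uncertain. HLA-DPA1, the DP alpha chain gene, had 2, 6 and 2 counts in knockdown libraries, against 0, 2 and 9 counts in control libraries, and HLA-DPB1, the DP beta chain gene, had 7, 4 and 8 counts in knockdown libraries, against 7, 12 and 15 counts in control libraries. For HLA-DRB1, HLA-DPA1 and HLA-DPB1 the groups overlapped. The 4 genes together had 13, 10 and 16 counts in knockdown libraries, against 15, 22 and 35 counts in control libraries, so that the groups overlapped on the count scale by the lowest control library. HLA-DPA1 and HLA-DPB1 face each other on opposite strands and share 96 exon bases. Small even numbers were frequent, 14 of the 19 nonzero counts of the 4 genes, and where both mates of a pair were counted the number of fragments is lower still. With no filter on low counts, HLA-DRA had an unadjusted p = 0.0416 and an adjusted p = 0.198, HLA-DRB1 0.589, HLA-DPA1 0.981 and HLA-DPB1 0.517 by edgeR.

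The other class II genes of the table were also near 0. Of 12 genes, which included the DQ and DO chains and the class II pseudogenes, 11 had at most 3 counts in any library, and 4 were at 0 in all 6. HLA-DOB, which encodes the beta chain of the HLA-DM inhibitor HLA-DO, was the only one tested, at 1.29 CPM in knockdown and 1.0 CPM in control libraries (log2 fold change 0.37, adjusted p = 0.218). Its partner HLA-DOA had 2 counts in 1 knockdown library and 0 in the other libraries. HLA-DOB shares 599 exon bases with XXbac-BPG246D15.9, a longer transcript that averaged 47.8 CPM in knockdown and 54.1 CPM in control libraries.

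The HLA-DM genes were low and variable. HLA-DMA (chr6:32948613-32969094, GRCh38, minus strand) had 27, 36 and 52 counts in the knockdown libraries, against 23, 34 and 40 counts in the control libraries. Its groups overlapped, and its log2 fold change was 0.28 (SE 0.312, adjusted p = 0.559 by edgeR, 95% interval -0.33 to 0.89). Leaving out knockdown replicate 3, the highest library, changed the log2 fold change of HLA-DMA to -0.05. HLA-DMB (chr6:32934629-32941070, GRCh38, minus strand) had 8, 14 and 6 counts in the knockdown libraries, against 18, 22 and 8 counts in the control libraries. Its groups overlapped through control replicate 3, and its log2 fold change was -0.75 (SE 0.475, adjusted p = 0.27 by edgeR, 95% interval -1.68 to 0.18). The products of both genes form 1 heterodimer, and their fitted changes had opposite signs with intervals that both include 0. HLA-DMA shares 55 exon bases with BRD2, a gene on the opposite strand at 368 CPM in knockdown and 437 CPM in control libraries, and the part of BRD2 reads in its counts was not tested.

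**Figure D3:**
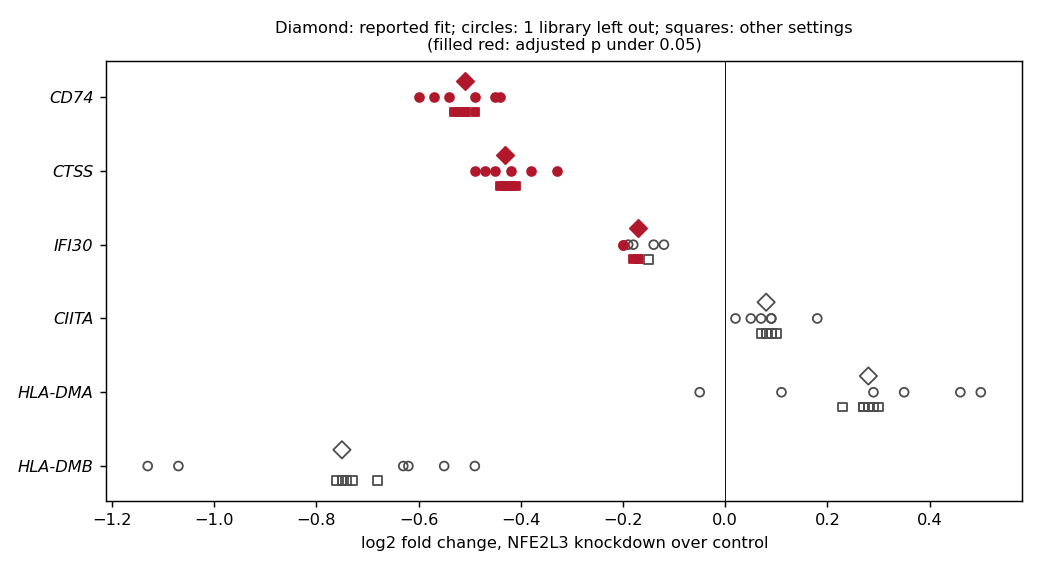
Log2 fold change, knockdown over control, of the 6 tested genes in the reported fit (diamonds), with 1 library left out (circles) and under the other settings (squares), filled red where the adjusted p was under 0.05. CD74 and CTSS are red in all 16 alternatives, IFI30 in 11 of 16, and CIITA, HLA-DMA and HLA-DMB in none.

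The promoters of class II genes and of CD74 carry an X box, bound by RFX and CREB factors, followed downstream by a Y box, a CCAAT sequence in either direction bound by NF-Y. The 120 bases before the transcription start are shown for CD74, a gene with clear counts, and 3 class II genes with low counts. Each stretch holds a CCAAT in either direction, which the windows of HLA-DPB1 and IFI30 also hold. The windows are those of RefSeq on GRCh38.p14 (250 bases before to 50 after the start), which matched 7 of the 10 members; CIITA, HLA-DRA and CTSS had no entry. Capitals mark CCAAT or its reverse complement ATTGG and, in the HLA-DRB1, HLA-DMA and HLA-DMB stretches, a run of 10 bases that their windows share.
CD74 (chr5:150412911-150413030, minus strand): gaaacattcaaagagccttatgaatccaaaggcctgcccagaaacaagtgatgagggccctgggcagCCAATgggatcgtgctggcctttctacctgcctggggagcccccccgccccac
HLA-DRB1 (chr6:32589849-32589968, minus strand): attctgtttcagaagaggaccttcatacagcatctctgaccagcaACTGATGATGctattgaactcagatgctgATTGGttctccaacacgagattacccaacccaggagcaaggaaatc
HLA-DMA (chr6:32953098-32953217, minus strand): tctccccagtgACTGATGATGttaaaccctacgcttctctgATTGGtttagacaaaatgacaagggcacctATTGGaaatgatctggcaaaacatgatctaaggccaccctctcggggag
HLA-DMB (chr6:32941029-32941148, minus strand): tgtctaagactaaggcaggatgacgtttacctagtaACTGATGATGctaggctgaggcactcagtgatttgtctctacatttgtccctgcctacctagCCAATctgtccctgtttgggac

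In these windows CCAAT was found on either strand for 6 of 8 member windows, at 53 bases before the start of CD74, 46 before that of HLA-DRB1, 79 and 49 before that of HLA-DMA and 22 before that of HLA-DMB. CCAAT occurs in 34.6% of all 35116 windows, so that it is common. The run of 10 bases, which was found after the sequences were read, occurs in 0.0854% of all windows (30 windows), and it ends 19 bases before ATTGG in HLA-DRB1 and 20 bases before the first ATTGG in HLA-DMA, whereas in HLA-DMB the nearest CCAAT follows after 52 bases and is in the other direction. CD74 and HLA-DRB1 thus both have a CCAAT within the 120 bases shown, while their levels in control libraries were 4.37 RPKM for CD74 and 0.0872 RPKM for HLA-DRB1. The core of the antioxidant response element, TGACNNNGC, the kind of site bound by NFE2-related factors with small MAF proteins, occurs in 13.3% of all windows and was found only in the 2 windows of HLA-DPA1. The gamma-activated site TTCNNNGAA (7.66% of all windows) and the core of the interferon-stimulated response element (3.57% of all windows) were found in none of the 8 windows. A match is a run of letters and no measured binding, and a window without one says nothing of sites elsewhere.

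The 10 factors that act on these promoters were all tested, and 5 were called lower and 0 higher, beside 14% and 12.7% of all tested genes. Their median log2 fold change was -0.13. CREBBP, a histone acetyltransferase recruited by CIITA, was at 101 ± 3.72 CPM in knockdown and 162 ± 7.24 CPM in control libraries (SD, n = 3 each), a log2 fold change of -0.69 (adjusted p = 1.9e-11). CREB1, which binds next to RFX, was at 44.5 CPM in knockdown and 54.9 CPM in control libraries (log2 fold change -0.3, adjusted p = 1.77e-05). NFYC, a subunit of NF-Y, was at 19.1 CPM in knockdown and 22.6 CPM in control libraries (log2 fold change -0.24, adjusted p = 0.00465), and the acetyltransferase gene KAT2B at 9.47 CPM in knockdown and 11.6 CPM in control libraries (log2 fold change -0.3, adjusted p = 0.00906). With all 6 libraries none of the RFX subunits passed the test, with log2 fold changes of -0.1 for RFX5, 0.28 for RFXAP and -0.14 for RFXANK. Leaving out control replicate 3 or knockdown replicate 2 reduced the 5 lower genes to 3, and leaving out control replicate 1 raised the higher count to 1 (RFXAP).

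Interferon-gamma itself was all but undetected. IFNG had 2 counts in 1 knockdown library and 0 in the other 5 libraries. Among the 10 tested genes of its pathway, 9 were called lower and 0 higher, IFNGR2 being the uncalled one, with a median log2 fold change of -0.27. Over all tested genes, 14% were called lower and 12.7% higher. This list, like the others, was chosen with earlier results of these data known. The receptor kinase gene JAK1 was at 249 CPM in knockdown and 316 CPM in control libraries (log2 fold change -0.34, adjusted p = 1.63e-07). IRF1, which helps to switch on the inducible CIITA promoter, was at 130 CPM in knockdown and 162 CPM in control libraries (log2 fold change -0.32, adjusted p = 1.48e-05). SOCS3, a feedback inhibitor of JAK-STAT signalling, was at 8.16 CPM in knockdown and 13.2 CPM in control libraries (log2 fold change -0.7, adjusted p = 1.15e-06). CIITA had a log2 fold change of 0.08, and whether this differed from the changes of these genes was not tested.

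The MHC class I genes, many of which also respond to interferon-gamma, ranged widely in level per exon length, from HLA-G at 1.05 RPKM in knockdown and 1.08 RPKM in control libraries to genes such as HLA-B at 575 RPKM in knockdown and 573 RPKM in control libraries. The test called 9 of 19 class I genes lower and 0 higher, beside 14% and 12.7% of all tested genes, with a median log2 fold change of -0.04. B2M, the light chain of class I, was at 486 CPM in knockdown and 706 CPM in control libraries (log2 fold change -0.54, adjusted p = 1.09e-10). PSMB10, an immunoproteasome subunit gene, had a log2 fold change of -0.4 (adjusted p = 6.3e-05). Among the heavy chain genes, HLA-F was lower (log2 fold change -0.2, adjusted p = 0.00191), while HLA-B and HLA-C did not pass, with log2 fold changes of 0 for HLA-B and 0.02 for HLA-C.

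**Figure D4:**
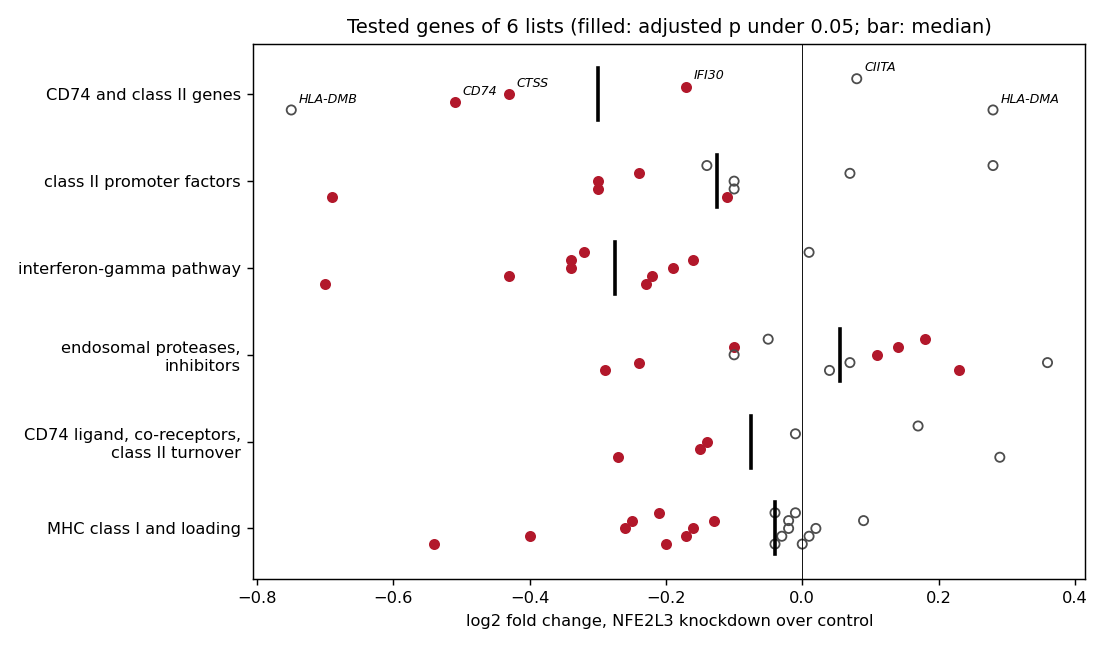
Log2 fold change, knockdown over control, of every tested gene in 6 lists, filled red where the adjusted p was under 0.05, with the median as a bar. The 9 red points of the interferon-gamma pathway all lie below 0 (median -0.27), whereas the endosomal proteases have red points on both sides (median 0.05).

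Antigen-presenting leukocytes are the usual source of class II transcripts in tissue, and their markers were examined in these cultures. Of 22 markers, 15 did not pass the filter on low counts, and MS4A1, TYROBP and CD86 were at 0 in all 6 libraries. PTPRC, the pan-leukocyte marker CD45, was at 0.168 CPM in knockdown and 0.171 CPM in control libraries. The summed level of the 22 markers was 159 to 165 CPM in knockdown and 166 to 187 CPM in control libraries. Most of this was CD68, a lysosomal protein gene at 118 CPM in knockdown and 132 CPM in control libraries that shares 81.7% of its exon bases with RP11-186B7.4. Without CD68 the sum was 43.6 to 45.5 CPM in knockdown and 42.5 to 45.2 CPM in control libraries, and these ranges overlap. Most of this remainder was CD40 and CD83, at 21.5 CPM for CD40 and 17.4 CPM for CD83 in knockdown libraries. Their log2 fold changes had opposite signs, at -0.16 for CD40 and 0.34 for CD83. The overlap of the sums therefore does not show that the single markers were unchanged. Whether these reads came from leukocytes was not tested. Of the 7 tested markers, 3 were called lower (CD68, LAPTM5 and CD40) and 2 higher (CSF1R and CD83), beside 14% and 12.7% of all tested genes. The lower count was 1 without control replicate 1 or knockdown replicate 1, and the higher count was 1 without control replicate 2, control replicate 3, knockdown replicate 1 or knockdown replicate 2.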

How the data were processed

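RNA was measured by stranded mRNA sequencing with molecular identifiers in 6 libraries of 786-O cells. By the submitters' processing notes and the study's methods, Trimmomatic 0.36 was used for trimming, reads of 1 molecular identifier were merged to a consensus, and STAR 2.5.3a aligned these to the genome of Ensembl release 87 (GRCh38 coordinates). The authors then counted reads per gene over exons (featureCounts, Subread 1.5.1) and deposited the raw counts. The sources used here do not state the strand setting. The counts of overlapping genes show that reads were counted for every gene they overlap, on either strand.

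From the counts, CPM and RPKM (CPM per kilobase of exon) were computed over library totals scaled by TMM factors. The filter was filterByExpr (minimum count 10) and the scaling TMM. Knockdown was compared with control by edgeR 4.0.16 (quasi-likelihood test, R 4.3.3) with no block for replicates, and p-values were adjusted by the method of Benjamini and Hochberg across the 19916 genes tested. SEs are the log2 fold change divided by the root of its F value. The procedure was tested on simulated data. The 16 alternatives were scaling by upper quartile, by RLE or by totals only, DESeq2 1.42.0, limma-voom (limma 3.58.1), edgeR's exact test, a filter at 10 counts in each library or none, halved counts, a replicate block and leaving out each of the 6 libraries. Limits for a count of 0 are 3 counts and, like the intervals, cover counting error or library spread only.

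The members and the gene lists were chosen with earlier results of these data known. Named genes were NFE2L3, the 10 members, up to 4 genes per list with the smallest adjusted p, genes sharing exon bases with a member and the 5 genes nearest to CD74. A gene that this rule takes is not reported here. PIK3R2, MIF-AS1, RP11-186B7.4 and XXbac-BPG246D15.9, and list genes named without having passed the test, were added after their values were seen.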

Additional observations from a re-analysis of the deposited data

How the results depend on the processing

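CD74, CTSS and NFE2L3 kept their direction and passed the test under all 16 alternatives, and CIITA, HLA-DMA and HLA-DMB passed under none in which they could be tested. The count of members called lower was 3, and 2 with upper quartile scaling and without control replicate 2, control replicate 3, knockdown replicate 1 or knockdown replicate 2, each time by the loss of IFI30. The count of members at p under 0.05 and a fold of at least 2 was 0, and 1 with no filter (HLA-DRA). It ran from 0 to 1 with 1 library left out, the 1 being HLA-DMB without control replicate 3, at a log2 fold change of -1.07. Over all genes that count was 219, 572 with no filter, 78 with at least 10 counts in every library, 95 with halved counts, 367 without control replicate 1 and 330 without control replicate 2. The cause was not tested, apart from the number of genes that a filter leaves. Of 528 values of 33 other named genes, 507 kept their call, 21 lost it and 0 reversed. Of the MHC class I genes, 1 was higher with upper quartile scaling, DESeq2 or limma-voom, against 0 in the reported fit.

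The deviations of same-numbered libraries had correlations of -0.057, -0.156 and -0.069, so no pairing by replicate number was seen. Deviations from means of 3 libraries cannot show that the libraries were unpaired. With the replicate block the count of members called lower stayed at 3, that of members called higher at 0 and that of members with a fold of at least 2 at 0, and the adjusted p was 5.33e-04 for CD74, 0.00146 for CTSS and 0.041 for IFI30. The low counts of the chain genes and of HLA-DMB set the limit of what could be compared.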
